A study of Mus musculus with 16 samples.

Results

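Acod1, known in older annotations as Irg1, encodes aconitate decarboxylase, the mitochondrial enzyme that makes itaconate from cis-aconitate, an intermediate of the tricarboxylic acid (TCA) cycle. All probes whose accession maps to Acod1 (mouse gene ID 16365) were taken from the arrays. They came to 1 probe, and Acod1 is thus 1 of 20659 genes named on the array and 1 of 12759 genes tested. That probe is printed as 10 spots on every array, which share a sequence and are not replicates of a condition.

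Itaconate is among the metabolites that macrophages accumulate most strongly once Toll-like receptors are engaged, and Acod1 transcription is what turns its synthesis on. Itaconate inhibits succinate dehydrogenase, alkylates cysteines of proteins such as the NRF2 inhibitor KEAP1, and dampens part of the inflammatory programme. Heme is the iron-containing prosthetic group that is set free when red cells lyse. In plasma it binds to albumin, and macrophages that take it up switch on heme oxygenase and the antioxidant programme.

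Expression was measured on 16 two-colour Agilent arrays from murine macrophages differentiated from stem cells. There were 4 groups of 4 arrays, lettered a to d: cells without treatment at 0 h, cells given 50 µM heme-albumin for 8 h, cells given 200 µM heme-albumin for 8 h, and cells given 10 ng/mL lipopolysaccharide (LPS), a bacterial ligand of TLR4, for 8 h. The sample was labelled red (Cy5) and hybridised with green (Cy3) reference RNA from untreated macrophages, and on control arrays both colours held untreated RNA. The series' design text calls the 4 samples of a group independent biological replicates; the mouse strain and the type of stem cell are not given in the sources used here. All treated groups were taken at 8 h and the control at 0 h, so treatment and time in culture cannot be told apart against the control. Comparisons between treated groups are matched in time. No group received albumin alone, so heme and its carrier cannot be told apart either.

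Each slide carried 1 array of every group and 1 replicate letter. The slides of letters a and b were scanned on one day (scan day 1) and those of c and d on another (scan day 2). Every group had its own fixed place on the slides, so place and group cannot be told apart. Of the 12 macrophage markers chosen, 11 were on the array under a name used here, and these were well above background on all 16 arrays. Of 8 embryonic stem cell markers, Pou5f1, Zfp42 and Sox2 were well above background on 0 arrays, and Nanog, Tdgf1 and Lin28a on all 16. Esrrb was so on all control and 50 µM arrays but not on all arrays of the other groups. The summed processed red signal of the 8 ran from 280 to 349 in the control, 265 to 446 at 50 µM, 306 to 418 at 200 µM and 748 to 807 after LPS, against at least 119066 for the macrophage markers on every array. These sums are not scaled between arrays. The macrophage sum likewise ran from 119066 to 169024 in the control and from 336887 to 528588 after LPS. Between 49.9% and 59.4% of probes were well above background in red, and 8 arrays carried the scanner software's grade "Evaluate" rather than a pass.

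The sequence just before the annotated start of Acod1 is shown because the gene changed in all 3 treatments, and the letters show which known motifs lie there. RefSeq's table for GRCm38.p6 places these 250 bases at chr14:103046762-103047011, on the plus strand, ending at the base before the first transcribed base. Capitals mark matches to the motifs named below.

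Acod1: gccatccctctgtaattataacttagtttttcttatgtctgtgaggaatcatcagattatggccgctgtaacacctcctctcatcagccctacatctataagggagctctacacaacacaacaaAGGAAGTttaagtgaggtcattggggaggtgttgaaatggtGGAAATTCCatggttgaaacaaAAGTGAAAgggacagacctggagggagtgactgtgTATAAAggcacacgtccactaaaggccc

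The motifs were chosen after the sequence had been read, and both strands were searched. AGGAAGT, bound by PU.1 and other ETS factors, lies 126 to 120 bases before the start, and 7.69% of 32817 promoter windows of the same length hold it. GGAANTTCC, of the kappaB type bound by NF-kB, lies 85 to 77 bases before the start, and 0.811% of the windows hold it. AANNGAAA, a short site of interferon regulatory factors, lies 63 to 56 bases before the start and is in 21.3% of windows. The TATA box TATAAA lies 28 to 23 bases before the start and is in 12.4% of windows. These matches do not overlap each other. The other patterns searched had no match in the window: a longer kappaB pattern (in 0.357% of windows), the interferon-stimulated response element (2.97%), TGANTCA (AP-1, 6.75%), TGACNNNGC (core of the antioxidant response element, 10.2%), TTCNNNGAA (STAT, 7.01%), TTGCNNAA (C/EBP, 9.57%) and TCACGTGA (TFEB, 0.786%). A match describes letters only, and no binding was measured.

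The log2 ratio of red sample over green reference was near 0 on the control arrays and high in every treated group. The 4 control arrays read 0.04, -0.00, 0.09 and 0.16 in the order a to d. Arrays of 50 µM heme-albumin read 1.71, 1.48, 2.37 and 2.48. At 200 µM the ratios were 3.68, 3.56, 3.95 and 3.66. These values rose with the dose, and no array of a group reached into the range of the next.

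LPS arrays b, c and d gave ratios of 6.38, 6.20 and 6.31. On LPS array a the scanner software had marked all 10 Acod1 spots as uneven, so this array has no value in the fit and LPS has n = 3 for Acod1. With the marked spots kept, array a read 6.02, with spots between 5.48 and 6.66. The SD over its 10 spots was 0.475, against 0.02 to 0.10 on the other 15 arrays. The order of the group means was thus control at 0.07 ± 0.07 (SD, n = 4), 50 µM at 2.01 ± 0.49 (SD, n = 4), 200 µM at 3.71 ± 0.16 (SD, n = 4) and LPS at 6.30 ± 0.09 (SD, n = 3). Groups next to each other in this order do not overlap.

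**Figure D1:**
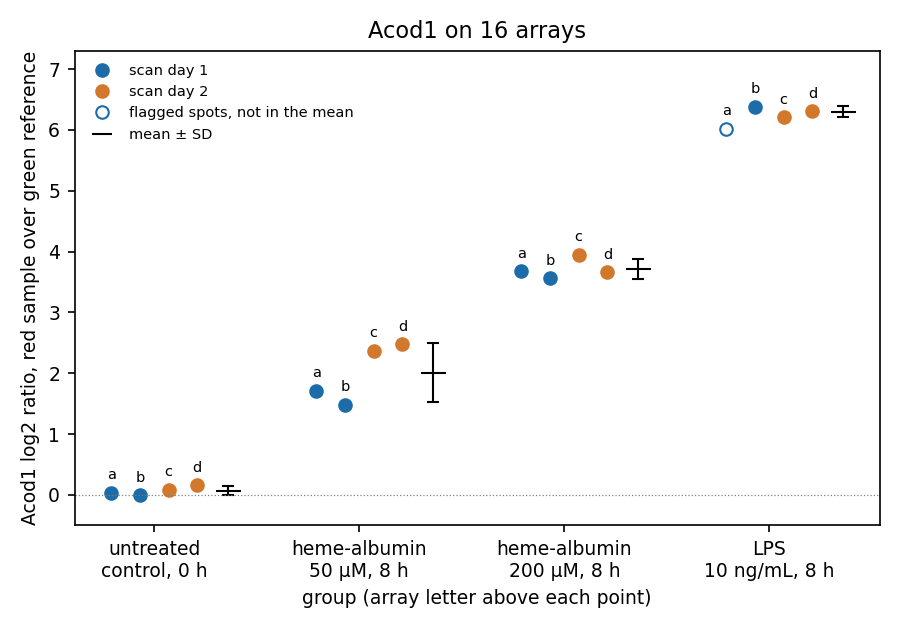
The vertical axis is the Acod1 log2 ratio of red sample over green reference, with 1 point per array for the 4 groups, coloured by scan day, and the group mean with its SD to the right of the points. Control arrays lie between -0.00 and 0.16, those of 50 µM between 1.48 and 2.48, those of 200 µM between 3.56 and 3.95, and the LPS arrays in the mean between 6.20 and 6.38, with array a, drawn open, at 6.02.

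Acod1 was 3.64 ± 0.18 log2 units (SE; 95% interval 3.25 to 4.03) higher at 200 µM heme-albumin than in the control, or 12.5-fold, with a limma adjusted p of 1.1e-08. All 4 arrays lay above every control array. This was the 8th largest fitted increase among 12759 genes, next below Hmox1 (3.70), which encodes the inducible heme oxygenase. Ranks here and below are of fitted changes, some of which rest on dim control spots: Slc7a11 and Cxcl3, ranked above Acod1, were well above background on 1 and 0 control arrays. To be called, a gene had to change 2-fold or more with an adjusted p below 0.05, and 3.03% of genes met that rule in this comparison (2.05% higher and 0.98% lower). With another background correction (normexp with loess) the increase was 2.80 log2 units at an adjusted p of 2.2e-06, and still called.

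At 50 µM the increase over the control was 1.94 ± 0.18 log2 units (SE; 95% interval 1.55 to 2.33), or 3.84-fold, with a limma adjusted p of 4.3e-05 and all 4 arrays above the control. It ranked 8th of 12759 genes here too, in a comparison where 0.368% of genes were called (0.29% higher and 0.0784% lower). The SE comes from a spread pooled over all groups, while the SD of the ratio was 0.07 in the control and 0.49 at 50 µM. The arrays of the 2 scan days differed. Set against the control array of the same letter, the increases were 1.67 and 1.49 for a and b, but 2.28 and 2.32 for c and d. Scan day 1 alone gave 1.58 ± 0.10 (SE) and day 2 alone 2.30 ± 0.10 (SE), both called (limma adjusted p of 0.0044 and 0.0012). Whether these differ beyond chance was not tested, and scan day and the letters' cultures cannot be told apart.

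The dose difference, which is matched in time, was 1.70 ± 0.18 log2 units (SE; 95% interval 1.31 to 2.09) or 3.25-fold, with a limma adjusted p of 5.7e-05. Between the doses 0.823% of genes were called (0.627% higher and 0.196% lower at 200 µM), and Acod1 ranked 20th from the top. Within each letter, 200 µM exceeded 50 µM by 1.97, 2.08, 1.58 and 1.18 log2 units for a to d. The difference was 2.02 on scan day 1 and 1.38 on day 2, and 1.11 with normexp and loess (limma adjusted p of 0.0012, 0.0022 and 0.038).

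LPS raised Acod1 by 6.23 ± 0.19 log2 units (SE; 95% interval 5.81 to 6.65) over the control, or 75-fold, with a limma adjusted p of 2.1e-12 and 3 of 3 arrays above every control array. This ranked 24th of 12759 genes, in a comparison with 30.7% of genes called (14% higher and 16.7% lower). With the uneven spots of array a kept, the increase was 6.16. Against LPS, Acod1 at 200 µM heme-albumin fell short (a difference of -2.59 ± 0.19 log2 units, SE, limma adjusted p of 2.5e-08), where 30.3% of genes were called (16.8% higher and 13.6% lower). At 50 µM it fell short by more (-4.29 ± 0.19, SE, limma adjusted p of 1.1e-10), where 30.6% of genes were called (16.7% higher and 13.9% lower). For each of the 6 comparisons the exact two-sided permutation test of the arrays' ratios gave p = 0.0286, the smallest that 4 against 4 arrays, or 3 against 4, can give. In this test, and in that of the green signal below, arrays were permuted without regard to the slide they share.

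The red signal rose more after LPS than the ratio did. Before dye normalisation, the median red signal of Acod1 was 451, 500, 892 and 900 scanner units on control arrays a to d. After LPS it was 398285, 425409, 293548 and 302091, or 45.9% to 66.8% of the saturation value. No Acod1 spot was marked as saturated. On the LPS arrays all 10 spots were read from the scan at low gain, as was 1 spot on array c of 200 µM. At 50 µM the red signals were 1542, 1493, 4743 and 5129, and at 200 µM they were 6690, 7403, 16852 and 13338. All 10 spots were well above background in both colours on every array, against local red backgrounds of 46.3 to 71.5.

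The green signal, which per the labels is untreated reference RNA on every array, was also high on the LPS arrays. It was 278, 294, 407 and 413 on control arrays, 286 to 460 at 50 µM, 344 to 497 at 200 µM, and 2419, 2552, 1653 and 1676 after LPS. Every LPS array thus lay above every other array in green. Scaled to each array's 75th percentile, the green signal was 8.45-fold that of the control after LPS (exact two-sided permutation p = 0.0286, the smallest possible). The same measure gave 1.33-fold at 200 µM and 1.08-fold at 50 µM (permutation p = 0.457 and 0.657). On the LPS arrays green stood at 0.548% to 0.600% of red.

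**Figure D2:**
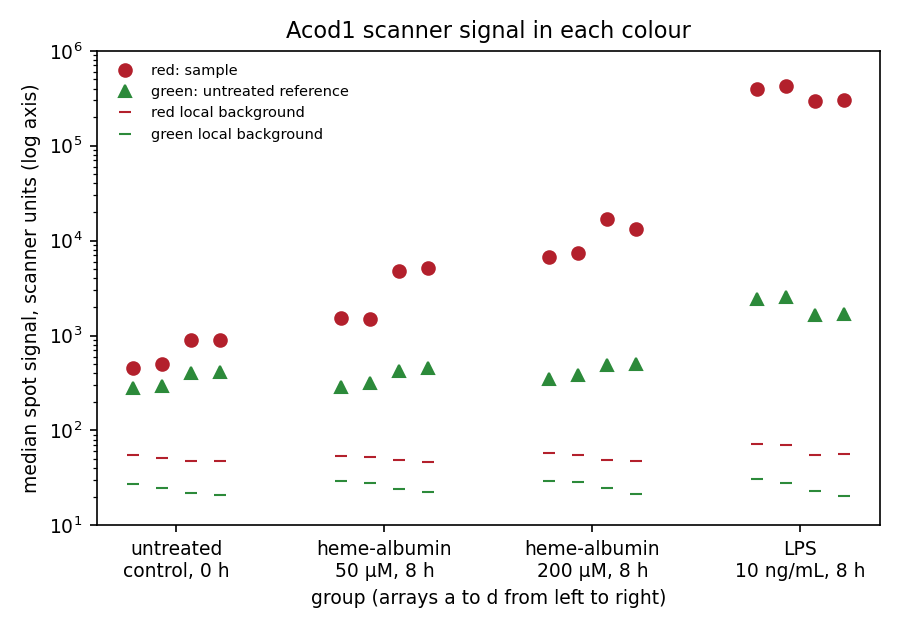
Median Acod1 spot signal in scanner units on a log axis, red circles for the sample and green triangles for the untreated reference, for arrays a to d of each group from left to right, with the local backgrounds as dashes. Green lies between 278 and 497 on the 12 control and heme-albumin arrays and between 1653 and 2552 on the LPS arrays.

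From the red channel alone, scaled to each array's 75th percentile, Acod1 was 9.34 ± 0.60 log2 units (SE) higher after LPS than in the control (limma adjusted p of 6.5e-09), far more than from the ratio. The 200 µM difference from the control was 4.04 ± 0.55 (SE, limma adjusted p of 0.00025), and that from LPS -5.30. The 50 µM increase of 2.05 ± 0.55 and the dose difference of 1.99 ± 0.55 (SE) were similar in size to those of the ratio. They were not called on red alone (limma adjusted p of 0.14 and 0.084) and were called once the slide was a block (0.0029 and 0.0019), an alternative added after the data were seen. Red and green were both higher on the c and d arrays of the control, where the scaled red signal had an SD of 0.76 against 0.07 for the ratio.

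Other spots that turned very bright after LPS behaved in a similar way. Apart from Acod1, 8 genes had a mean red signal under 2000 on control arrays and at least 100000 on LPS arrays, limits chosen after the data were seen. In 7 of these 8 the green signal on LPS arrays was at least 2-fold that on control arrays. Saa3, an acute-phase protein, had a green signal 32.7-fold that of the control arrays, Socs3, a feedback inhibitor of cytokine signalling, 41.8-fold, and Il1b, which encodes interleukin-1 beta, 6.32-fold. The exception was Gpr84, a receptor for medium-chain fatty acids, with green at 520 after LPS and 515 in the control. Among 5215 genes under 2000 in red on control arrays and under 1000 on LPS arrays, the median green ratio of LPS over control was 0.955. With all spots kept and each colour scaled to its 75th percentile, Acod1 after LPS was 9.23 log2 units above the control in red and 3.08 in green. Its ratio over all spots was 6.16 above the control. The source of the green signal was not tested, and the ratio-based LPS value of Acod1 is given with that limit.

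Gpr84 was the gene most like Acod1 in the size of its ratio changes. The measure was the root mean square difference over the 3 changes from the control, which was 0.51 log2 units. Its ratios were 0.44, 0.27, 0.15 and 0.32 on control arrays, 1.86, 1.54, 1.81 and 2.02 at 50 µM, 3.30, 3.12, 3.77 and 3.32 at 200 µM, and 7.37, 7.46, 6.69 and 6.73 after LPS. As with Acod1, its 4 groups do not overlap and follow the same order. Its changes were 1.51, 3.08 and 6.77 (SE 0.18 each), all called. The likeness rests on the ratio: the mean red signal on LPS arrays was 109-fold that on control arrays for Gpr84 and 585-fold for Acod1.

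The other 7 genes followed by that measure. Fpr2 and Fpr1, receptors for formylated peptides, rose by 3.40 ± 0.15 and 3.16 ± 0.17 (SE) at 200 µM and by 5.59 and 4.47 after LPS. Fpr2 was well above background on 3 of 4 control arrays. Cxcl3, a chemokine for neutrophils, was dim (not well above background) on all 4 control arrays and rose at least 8.41-fold at 200 µM. Ppm1n, of a family of protein phosphatases, was likewise dim in the control and rose at least 5.81-fold and at least 18.0-fold. Mmp14, a membrane-bound metalloproteinase, also dim in the control, rose at least 1.88-fold at 200 µM, where 3 of 4 arrays measured it. These bounds set the red signal against the dimmest probe still well above background, and are open to dye bias. Cxcl3 and Mmp14 were called after LPS too, and no bound is given there, since red against that dimmest probe gave 778 and 270 while the ratio gave 217-fold and 70.9-fold. Slc7a11, the cystine transporter, and the chemokine Cxcl1 were well above background on 1 of 4 control arrays. Their fitted changes at 200 µM were 4.44 ± 0.61 and 2.72 ± 0.45 (SE), both called.

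By Pearson correlation over the 15 arrays with an Acod1 ratio, 305 genes reached 0.9 and 93 reached 0.95, all arrays sharing slides, scan days and the 4 groups. The 8 highest were Mcoln2 (0.994), Gsap (0.994), Relb (0.992), Tnf (0.992), Ube2f (0.987), Ralgds (0.986), Cybb (0.985) and Gpr84 (0.984). Over the 12 arrays without LPS they stayed between 0.978 and 0.991. They follow the order of the groups, with smaller steps than Acod1 except for Gpr84. For Gpr84 the difference of 200 µM from LPS was larger, at -3.68 log2 units against -2.59 for Acod1. Tnf, which encodes tumour necrosis factor, changed by 1.07, 2.11 and 4.16 log2 units at 50 µM, 200 µM and LPS (SE 0.14 each, all called). Mcoln2, an endolysosomal cation channel, changed by 0.81, 1.70 and 3.03 (SE 0.11), and Relb, a subunit of NF-kB, by 0.65, 1.13 and 2.20 (SE 0.04). For Mcoln2 and Relb the 200 µM and LPS changes were called and the 50 µM change was not.

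**Figure D3:**
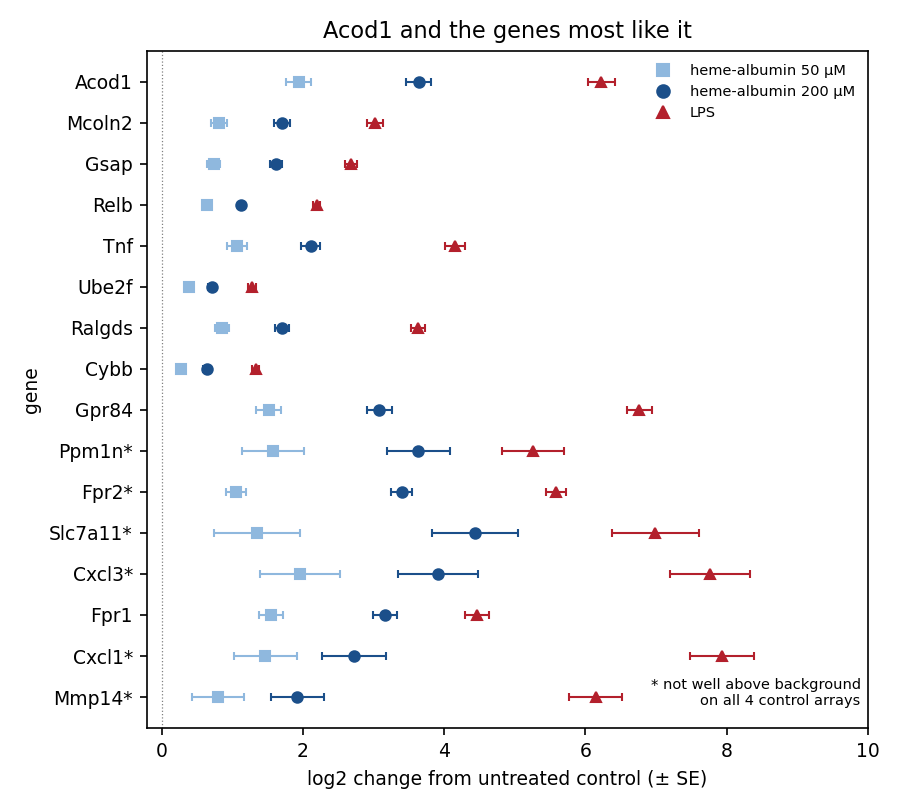
Changes from the untreated control in log2 units, with SE, for Acod1 and the 15 genes most like it by correlation or by size of change, for 50 µM (squares), 200 µM (circles) and LPS (triangles). Gpr84 lies nearest to Acod1 (1.51, 3.08 and 6.77 against 1.94, 3.64 and 6.23); an asterisk marks genes not well above background on all 4 control arrays, whose fitted change is not a bound.

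Enzymes of citrate and the TCA cycle, which supply and compete for the substrate of Acod1, mostly stayed below the 2-fold rule. So did most of all genes tested. After LPS 0 of 26 rose and 4 fell (3 higher and 17 lower at an unadjusted limma p under 0.05), against 14% and 16.7% of all genes tested, and the median was -0.23 against -0.09 for all genes. Those that fell were Idh1 (-1.81 ± 0.14, SE), which makes cytosolic 2-oxoglutarate from isocitrate, Mdh1 (-1.35), Fh1 (-1.10), the fumarase, and Idh3g (-1.01). Only 2 fell with normexp and loess, or with no background subtraction. At 200 µM 1 of 26 rose, against 2.05% of all genes: Pcx (2.19 ± 0.19, SE), pyruvate carboxylase, which feeds oxaloacetate into the cycle. Its change was 0.77 at 50 µM and 0.19 after LPS, neither called. At 200 µM 13 of 26 had an unadjusted limma p under 0.05 (5 higher and 8 lower). At 50 µM 0 of 26 were called by limma, against 0.368% of all genes, and 7 had an unadjusted p under 0.05. An ordinary linear model without moderation gave the same counts of calls as limma for this list and the others below, in all 3 comparisons with the control.

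Of 12 genes chosen for the transport, sensing and breakdown of itaconate and related dicarboxylates, 10 were tested, and the itaconate receptor Oxgr1 and Sugct did not pass the filter on dim probes. After LPS 2 of 10 rose and 1 fell, near the 14% and 16.7% of all genes. Those that rose were Acsl1 (3.14 ± 0.16, SE), a long-chain acyl-CoA synthetase, and Slc13a3 (2.98 ± 0.17), a dicarboxylate importer of the plasma membrane. Abcg2, an efflux transporter, fell (-1.27 ± 0.07). At 200 µM 0 of 10 were called, with Slc13a3 at 0.83 ± 0.17 and Acsl1 at 0.65 ± 0.16 (SE) the largest changes, and at 50 µM also 0 of 10, where 3.03% and 0.368% of all genes were called. At an unadjusted limma p under 0.05 there were 6 and 3 of 10.

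Of 15 genes for proteins that itaconate modifies or acts on, 7 rose and 1 fell after LPS, against 14% and 16.7% of all genes, with a median of 0.67 against -0.09 for all genes. The largest increases were those of Nfkbiz (3.60 ± 0.32, SE), which encodes the NF-kB cofactor IkB-zeta, Tet2 (2.02), a DNA demethylase, Nlrp3 (1.97), the inflammasome sensor, Atf3 (2.83-fold), a stress-induced transcription factor, and Keap1 (1.24). Tfeb, a regulator of lysosomal genes, was the 1 that fell, and it was not called on scan day 1 alone, with either loess setting, or without any 1 of control arrays c and d and LPS arrays c and d. With heme-albumin 0 of 15 were called at either dose, near the 3.03% and 0.368% of all genes, and 4 at 200 µM and 1 at 50 µM had an unadjusted limma p under 0.05. Sdha, the catalytic subunit of succinate dehydrogenase, was at -0.45 ± 0.04 after LPS and -0.19 ± 0.04 (SE) at 200 µM, below the 2-fold rule.

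Of 19 known regulators of Acod1 transcription, 11 rose and 2 fell after LPS, against 14% and 16.7% of all genes, with a median of 1.42 against -0.09 for all genes. Jak2 (3.42 ± 0.07, SE), a kinase of cytokine receptors, Cebpb (2.75), Tlr2 (2.71), Irf1 (2.68) and the LPS co-receptor Cd14 (2.66) rose most. Bach1 (-1.08), the heme-binding repressor of Hmox1, and Tfeb (-1.01) were the 2 that fell; both lost the call with normexp and loess or with no background subtraction, and 1 of them without control array c or d, without LPS array b, c or d, on scan day 1 alone, and on red alone. Bach1 was also not called on scan day 2 alone. At 200 µM 1 of 19 was called, near the 3.03% of all genes: Tlr2 (1.07 ± 0.12, SE), which recognises bacterial lipopeptides. The next largest changes, none called, were those of Cebpb (0.47), Irf8 (-0.42), Tlr4 (-0.26) and Cd14 (-0.26). At an unadjusted limma p under 0.05 there were 6 of 19 (4 higher and 2 lower). At 50 µM 0 of 19 were called, against 0.368% of all genes, 3 had an unadjusted limma p under 0.05, and Tlr2 was at 0.91 ± 0.12 (SE).

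Macrophage activation genes chosen for being induced alongside Acod1 all rose after LPS, 20 of 20 against 14% of all genes, with a median of 4.66. The list was chosen this way with earlier results of these data known, so its counts are a description and not a test. The largest changes were those of Il6, encoding interleukin-6, at least 1530-fold, and Ptgs2, the inducible cyclooxygenase, at least 800-fold, both dim on all control arrays. The bounds in this paragraph rest on the red signal and are open to dye bias. Cxcl10, an interferon-induced chemokine, rose by 8.72 ± 0.21 (SE), Gpr84 by 6.77 and Il1b by 6.74. At 200 µM 10 of 20 rose, against 2.05% of all genes, with a median of 0.84 against -0.02 for all genes. Gpr84 (3.08 ± 0.18, SE) and Tnf (2.11 ± 0.14) led, followed by Saa3 (1.57), Il6 (at least 2.22-fold, measured on 3 of 4 arrays) and Ptgs2 (at least 1.09-fold, measured on 2 of 4). Only 5 of 20 rose with normexp and loess. Nos2, the inducible nitric oxide synthase, and Il1b, picked after their values were seen, were at 0.06 ± 0.17 and -0.10 ± 0.11 (SE) and not called. At 50 µM 2 of 20 rose, against 0.29% of all genes. They were Gpr84 and Tnf, and 1 of these on scan day 1 alone, with either loess setting, or without array c or d of 50 µM. All 3 comparisons share the control arrays. No gene of this list had a fitted change as large as that of Acod1 at either dose of heme-albumin. Outside the list, the chemokine Cxcl3 had larger fitted changes than Acod1, 1.96 at 50 µM (not called) and 3.92 at 200 µM. Its control spots were dim, as given above.

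NRF2 targets, the antioxidant genes that both heme and itaconate are known to switch on, rose in part in every treatment. At 200 µM 15 of 22 rose, against 2.05% of all genes, with a median of 1.60 against -0.02 for all genes. Slc7a11, Hmox1 (3.70 ± 0.17, SE), Gclm (2.38 ± 0.18), a subunit of the enzyme that starts glutathione synthesis, Prdx1 (2.01) and Txnrd1 (1.98) had the largest changes. At 50 µM 6 of 22 rose, against 0.29% of all genes, led by Hmox1 (2.88 ± 0.18), Gclm (1.67), the heme transporter Slc48a1 (1.28), Gclc (1.12) and Me1 (1.03). On scan day 1 alone, or without array d of 50 µM, 3 of 22 did. After LPS 6 of 22 rose, against 14% of all genes, with a median of 0.34: Slc7a11, Hmox1 (2.65 ± 0.18), Prdx1 (1.92), Txn1 (1.52), Txnrd1 (1.51) and Gsr (1.44). Unlike Acod1, Hmox1 was higher at 200 µM than after LPS, by 1.05 ± 0.18 log2 units (SE, limma adjusted p of 0.00017). Its difference between 50 µM and LPS was 0.23 ± 0.20 (adjusted p of 0.29), not called.

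**Figure D4:**
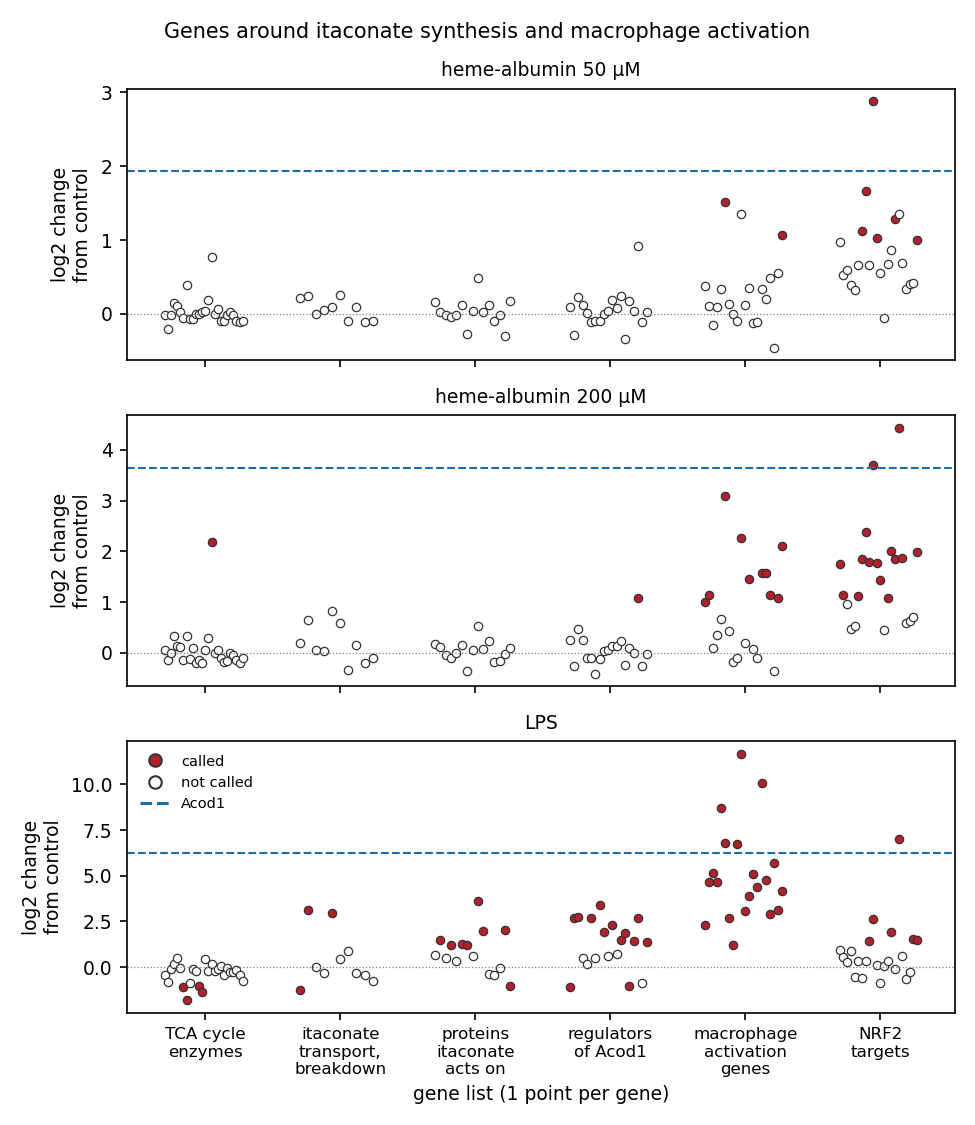
Change from the untreated control in log2 units for every tested member of 6 gene lists, 1 point per gene, filled where called, with a dashed line at the Acod1 change, for 50 µM (top), 200 µM (middle) and LPS (bottom); each panel has its own vertical scale, and the fitted changes of Il6, Ptgs2 and Slc7a11 rest on dim control spots. After LPS all 20 activation genes are filled, while at 200 µM 10 of those and 15 of 22 NRF2 targets are.

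The genes named here that lie near Acod1 on the chromosome, in the same RefSeq table, were not called with heme-albumin. A long noncoding RNA, Gm41235, is annotated across the start of Acod1 and was not measured under that name. The nearest tested gene before it, the noncoding 4933432I03Rik, rose by 4.91 ± 0.29 log2 units (SE) after LPS (limma adjusted p of 8e-10), with 2 of 4 control arrays well above background. It was at 0.26 ± 0.29 at 200 µM and 0.35 ± 0.29 (SE) at 50 µM. Kctd12, a channel-associated protein, rose by 1.16 ± 0.09 (SE) after LPS and was at -0.49 at 200 µM, below the 2-fold rule. Uchl3, a ubiquitin hydrolase, and Mycbp2, a ubiquitin ligase, had changes between -0.59 and 0.35 in the 3 comparisons with the control, none called.

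Of 11 macrophage markers tested, 3 rose and 2 fell after LPS, against 14% and 16.7% of all genes. At 200 µM 0 rose and 2 fell, against 2.05% and 0.98%, and at 50 µM 0 were called, against 0.368%. Some markers of other cells also moved with LPS. Neutrophils, like macrophages, are known to express Acod1. Of 12 neutrophil markers 5 were tested, and 2 of these rose after LPS, Camp (2.19 ± 0.31, SE) and S100a8 (1.56 ± 0.20), against 14% of all genes. At an unadjusted limma p under 0.05, 3 of the 5 were higher and 2 lower after LPS. With heme-albumin 0 were called (3 at 200 µM and 2 at 50 µM at an unadjusted limma p under 0.05). The summed processed red signal of the neutrophil markers on the array ran from 3811 to 6153 in the control, 6139 to 8002 at 50 µM, 6876 to 9933 at 200 µM and 8547 to 16717 after LPS. These sums are not scaled between arrays, and the macrophage sum also rose, from 119066 to 169024 in the control to 336887 to 528588 after LPS. Of the 11 on the array, S100a8, S100a9, Elane, Camp and Mmp8 were well above background on all 16 arrays, and Retnlg on 0. Of 4 dendritic cell markers tested 1 rose after LPS, Ccr7 (6.44 ± 0.40, SE), with 1 of 4 control arrays above background. Of 2 fibroblast genes tested 1 rose, Dcn, at least 10.9-fold (a bound open to dye bias), against the same 14% of all genes. Ccr7 and Dcn passed the filter on dim probes only through the LPS arrays. Their counts thus depend on the outcome and cannot be weighed against that share. Embryonic stem cell, mast cell and lymphocyte markers, 7 tested in all, had 0 calls in limma in the comparisons with the control, and in each of the 3 comparisons 2 of these had an unadjusted p under 0.05. Of all genes 30.7% were called after LPS, 3.03% at 200 µM and 0.368% at 50 µM. The part of other cells in the Acod1 change was not tested, and in these bulk samples fewer or more cells of a type cannot be told apart from less or more RNA per cell.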

How the data were processed

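Per the labels, Cy5 carries the sample and Cy3 untreated reference RNA. The authors' scanner files give each spot's log10 ratio of red over green after background subtraction and linear and lowess dye normalisation, per the file headers, made with version 10.7.3.1 of Agilent Feature Extraction, per the submitters' processing notes. Median and processed signals in the same deposited files are intensity per spot. The series' own value matrix holds those log10 ratios again (largest difference 0).

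Control and outlier spots were left out, spots of a probe averaged, and log10 ratios multiplied to log2. Accessions matched to RefSeq's genes of GRCm38.p6 named 27234 of 39429 probes. A probe had to be well above background in red on every array of some group, and the brightest such probe represented its gene. limma 3.58.1 in R 4.3.3 (lmFit, eBayes, a mean per group, 16 arrays, no block) gave changes, and p-values were adjusted by Benjamini-Hochberg over 12759 genes per comparison. The fit leaves out an array where all spots of a gene are outliers (402 genes, Acod1 among them). On simulated data the code called 100 percent of 8-fold changes in each comparison with the control, and 60, 40 and 46 percent of 2-fold changes at 50 µM, 200 µM and LPS. Reading used data.table version 1.17.8 and plots matplotlib 3.10.9.

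Acod1, the gene lists and the other choices were made with earlier results of these data known. The text names Acod1, up to 5 members of each list per treatment (called ones first, then the largest change), 3 tested neighbours on each side, 8 genes by correlation and 8 by root mean square difference. Some genes that this rule names are left out of the text. Exceptions are marked as picked after their values were seen. Arrays with the same letter share a slide, and their deviations from the group means correlated above 0.1 for every letter in 5 comparisons (0.1 to 0.502), so the letters pair the arrays there. Between LPS and control the correlations were 0.0961 to 0.114. Alternatives were the replicate block, scan day as a block or alone, no moderation, normexp (offset 50) or no background subtraction with loess, centring, red alone, other filters, other probes, outliers kept, and each array left out.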

Additional observations from a re-analysis of the deposited data

Results flagged for a closer look

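The Acod1 signal in the green channel, which per the labels holds untreated reference RNA, was 8.45-fold that of the control arrays on the LPS arrays after scaling to each array's 75th percentile. It is the denominator of the ratio on which the comparisons rest, so a higher green signal lowers that ratio. The source of the green signal was not tested.

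In the red channel alone, LPS array a stood apart from the other 3 LPS arrays for Acod1. It read 7.16 log2 units above the array's 75th percentile, against 7.68, 7.61 and 7.59 for b, c and d, and its gap to the nearest array was 0.841 of the group's range, above the limit for 4 samples, which chance passes in about 1 of 20 groups. This is the array whose Acod1 spots were all marked as uneven and were left out of the ratio.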

How the results depend on the processing

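The Acod1 change kept its direction in all 6 comparisons under all 30 alternatives. It kept its call in all of them but 2, both on the red channel alone: the 50 µM increase of 2.05 (limma adjusted p of 0.14, against 0.0044 or less in its other alternatives) and the dose difference of 1.99 (0.084, against 0.038 or less). With the replicate block the 6 Acod1 changes were 6.19, 3.64, 1.94, 1.70, -2.55 and -4.25, and the block changed no call of Acod1; the counts of called genes were 3922, 394, 54, 121, 3874 and 3918. Leaving out each array in turn gave 6.19 to 6.28 for LPS, 3.56 to 3.69 for 200 µM, 1.78 to 2.12 for 50 µM, and 1.53 to 1.86 between the doses. The first scan day leaves LPS with 1 Acod1 array, assumed to vary like the others. With normexp and loess 151, 19 and 31 genes were called for 200 µM, 50 µM and the doses, against 386, 47 and 105 in the main analysis; with no background subtraction and loess 228 and 28 were called for the first 2. The cause was not tested. On red alone, calls at 50 µM split into 32 higher and 4 lower, against 37 and 10. Genes not well above background in the control have only bounds, and 4 arrays per group limit the precision.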
